A study of Mus musculus with 6 samples.

Results

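The genes described here encode collagens, laminins and linking proteins of the basement membrane. All 10 members, Col4a1, Col4a2, Col4a5, Col15a1, Col18a1, Lama2, Lamb1, Lamc1, Nid1 and Hspg2, were found by gene symbol among the 22556 genes of the table, and all 10 were among the 11096 genes that passed the filter on low values, a mean of at least 1 RPKM. They were measured by RNA sequencing in hearts of wild-type (WT) mice. Ang II (angiotensin II), which constricts vessels and raises blood pressure, was given under the skin from ALZET miniosmotic pumps at 1000 ng/kg/min. The control group is labelled 0 days, and the other groups 7 and 28 days, with 2 libraries each, numbered by replicate. The same dose is listed for the control libraries. Adjusted p-values are Benjamini-Hochberg (BH) values of limma over all tested genes. The labels give neither strain, age nor sex, do not say what control mice received, and do not say that each library came from its own mouse, so the p-values measure the spread between these libraries, which may be technical.

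The basement membrane is a thin sheet of matrix that lies under the endothelium and surrounds each cardiomyocyte, smooth muscle cell and pericyte. Laminin trimers, built of an alpha, a beta and a gamma chain, bind receptors on the cell surface and form a first network. Type IV collagen forms a second, covalently linked network, nidogen and the heparan sulfate proteoglycan perlecan connect the networks, and collagens XV and XVIII sit where the sheet meets the surrounding fibrillar matrix. In the heart this layer anchors muscle cells through dystroglycan and integrins and supports the capillary wall.

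The deposited values were RPKM, read numbers scaled to transcript length and library size, so levels can be set side by side between genes per length. Depth relative to control library 1, estimated from genes of low RPKM, lay between 0.89 and 1.165. Cardiomyocyte markers were high everywhere. Their summed RPKM over 9 genes lay between 37350 and 38140 in the controls, 34610 and 42960 at 7 days and 43470 and 46480 at 28 days. Of the 9, 1 was called higher at 7 days and 2 at 28 days, beside 13.2% and 2.87% of all tested genes. Summed atrial markers stood at 320 RPKM in control library 1 and between 2038 and 3427 in the other 5 libraries. Of tested markers at 7 days, 1 of 3 mesothelial and 1 of 3 red blood cell genes were higher, beside 13.2% of all tested genes. The median log2 changes of these 2 lists were -0.26 and 0.76. Of the other markers, 0 of 1 Schwann cell, 0 of 1 adipocyte and 0 of 1 skeletal muscle gene passed. At 7 days the median log2 change of all tested genes was 0.14, and the members' changes relative to it are given with their counts. Median ratio scaling brought it to -0.01 and quantile normalization to -0.04.

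Col4a1 and Col4a2 are neighbours on opposite strands of chromosome 8 whose transcripts start beside each other, and because both rose at 7 days their start regions are shown first. The windows, from 250 bases before to 50 bases after the annotated start, come from RefSeq on GRCm38.p6, a build other than those listed for these files. Col4a1 is read on the minus strand from chr8:11312777-11313076 and Col4a2 on the plus strand from chr8:11312555-11312854. The annotated starts lie 21 bases apart and the first 22 transcribed bases are on both strands, where reads counted without strand cannot be told apart. Capitals mark the 78 bases that both windows hold, each printed on its own strand.
Col4a1: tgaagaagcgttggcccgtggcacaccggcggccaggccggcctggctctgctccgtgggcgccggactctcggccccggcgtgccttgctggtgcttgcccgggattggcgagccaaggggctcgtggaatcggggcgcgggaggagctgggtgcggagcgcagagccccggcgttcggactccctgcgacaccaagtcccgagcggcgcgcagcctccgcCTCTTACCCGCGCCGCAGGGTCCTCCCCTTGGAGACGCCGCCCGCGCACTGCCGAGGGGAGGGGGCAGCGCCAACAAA
Col4a2: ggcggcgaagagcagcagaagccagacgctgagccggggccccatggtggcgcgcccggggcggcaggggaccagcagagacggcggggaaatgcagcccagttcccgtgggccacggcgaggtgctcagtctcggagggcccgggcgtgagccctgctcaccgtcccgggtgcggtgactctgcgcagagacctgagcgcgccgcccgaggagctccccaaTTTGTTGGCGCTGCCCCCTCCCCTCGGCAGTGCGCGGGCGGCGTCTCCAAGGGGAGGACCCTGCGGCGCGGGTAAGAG

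Col4a5, a chain of the same collagen family that did not pass the test in any comparison, is shown for contrast, from the plus strand of chrX:141475169-141475468, with its GC box in capitals.
Col4a5: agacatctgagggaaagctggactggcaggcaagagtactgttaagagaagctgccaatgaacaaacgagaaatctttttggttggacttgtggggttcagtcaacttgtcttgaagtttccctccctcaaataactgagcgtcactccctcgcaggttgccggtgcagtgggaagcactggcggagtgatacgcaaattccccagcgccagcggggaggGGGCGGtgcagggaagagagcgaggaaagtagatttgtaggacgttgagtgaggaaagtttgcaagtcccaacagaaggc

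The Col4a1 window was 74.0% G and C and the Col4a2 window 73.7%, against 52.7% in the Col4a5 window and a median of 52.7% over all 32851 windows of this length in the table. For other members that rose at 7 days it was 52.3% (Col15a1), 59.7% and 63.3% (Col18a1), 63.7% (Lamb1) and 70.3% (Hspg2). For Lama2 and Nid1, which did not pass, it was 50.3% and 64.7%. The GC box, searched as GGGCGG on both strands, was found 1 time in the Col4a1 window, 3 times in the Col4a2 window and 1 time in the Col4a5 window, and 1 site lay in the shared bases and counts in both of the first windows. The GC box was in 8 of the 10 member windows, not in those of Col15a1 and a Col18a1 window, and in 35.7% of all windows. The CCAAT box, searched as CCAAT on both strands, was found 1 time in each of the Col4a1, Col4a2 and Col4a5 windows. It was in 6 of the 10 member windows and in 37.4% of all windows. The TATA box, searched as TATAAA on both strands, was in 0 of the 10 windows of the 9 members that the table lists, and in 13.6% of all windows. The SMAD element, searched as CAGACA on both strands, was in 1 of the 10 member windows, a Col18a1 window, and in 21.0% of all windows. The AP-1 site, searched as TGANTCA on both strands, was in 0 of the 10 member windows and in 7.81% of all windows. Matches to different motifs did not overlap in these windows. A match is a description of the letters only.

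Type IV collagen, the main structural collagen of basement membranes, was raised at 7 days in its common chains and not in Col4a5. Col4a1, the alpha 1 chain, stood at 39.0 and 42.7 RPKM in the control libraries, at 105 and 153 at 7 days and at 58.7 and 82.0 at 28 days. Both 7 day libraries lay above all others, and both 28 day libraries lay between them and the controls. The 7 day mean was 129 ± 33.9 against 40.9 ± 2.64 RPKM (SD, n = 2), a log2 change of 1.62 (SE 0.21, BH-adjusted p = 0.00446), or 1.48 above the median of all genes. At 28 days its log2 change was 0.76 (BH-adjusted p = 0.0956).

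Col4a2, the alpha 2 chain that assembles with Col4a1 into the common trimer, stood at 29.2 and 33.4 RPKM in the controls, 77.5 and 107 at 7 days and 51.6 and 65.1 at 28 days. Its libraries fell in the same order as those of Col4a1, with no overlap between groups. It rose by 1.53 on the log2 scale at 7 days (SE 0.18, BH-adjusted p = 0.0032). It was also the single member that passed at 28 days against control, with a log2 change of 0.88 (SE 0.18, BH-adjusted p = 0.0441). It no longer passed without control library 1 (BH-adjusted p = 0.287), control library 2 (0.14) or 28 day library 2 (0.118), and after quantile normalization (0.0877).

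Col4a5, an X-linked chain that assembles with other partners in kidney and several other tissues, stood at 7.46 and 8.44 RPKM in the controls, 7.77 and 9.61 at 7 days and 7.20 and 6.66 at 28 days. The 7 day libraries overlapped the controls, while both 28 day libraries lay below them. The log2 change was 0.12 at 7 days (SE 0.14, BH-adjusted p = 0.604) and -0.19 at 28 days (BH-adjusted p = 0.462). Its 7 day value was below 0 with either rescaling, at -0.03 and -0.07, and at -0.03 without 7 day library 2. Of the other chains, Col4a3 was low, with mean RPKM of 1.49 (control), 1.13 (7 days) and 0.77 (28 days), and did not pass. Col4a4 and Col4a6 did not reach a mean of 1 RPKM and were not tested.

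**Figure D1:**
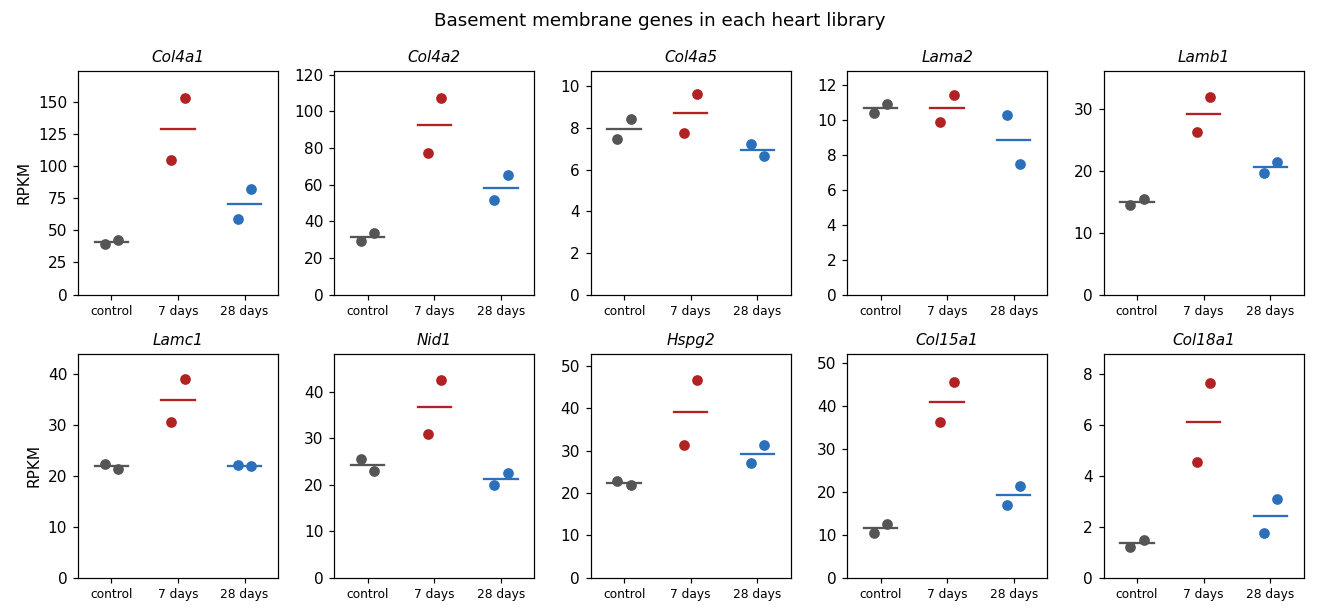
RPKM of the 10 basement membrane genes (vertical axes from 0, 1 panel per gene) in the control, 7 day and 28 day libraries; points are single libraries and lines group means. Col4a1, Col4a2, Col15a1, Col18a1, Lamb1, Lamc1 and Nid1 stand highest in both 7 day libraries, while Lama2 and Col4a5 overlap between control and 7 days.

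Among laminins, the beta 1 and gamma 1 chains rose at 7 days and the alpha 2 chain did not. Lama2, the alpha chain of the muscle laminin and the gene mutated in a congenital muscular dystrophy, stood at 10.4 and 10.9 RPKM in the controls, 9.93 and 11.5 at 7 days and 10.3 and 7.46 at 28 days. The 7 day libraries lay on either side of the controls. The means were 10.7 ± 0.37 and 10.7 ± 1.09 RPKM (SD, n = 2), a log2 change of 0.00 (SE 0.16, BH-adjusted p = 0.999), which lay at -0.14 relative to the median of all genes. Its sign turned without control library 2 and without 7 day library 1 (log2 changes of 0.03 and 0.10). At 28 days both libraries were below the controls, and the log2 change of -0.27 did not pass (BH-adjusted p = 0.367). It was -0.05 without 28 day library 2 and -0.49 without 28 day library 1.

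Lamb1, the beta 1 chain, stood at 14.6 and 15.4 RPKM in the controls, 26.4 and 32.1 at 7 days and 19.8 and 21.5 at 28 days. The 3 groups did not overlap. It rose by 0.93 on the log2 scale at 7 days (SE 0.12, BH-adjusted p = 0.00457), a call kept without any single library, and at 28 days its log2 change was 0.45 (BH-adjusted p = 0.094).

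Lamc1, the gamma 1 chain found in most laminin trimers, stood at 22.4 and 21.4 RPKM in the controls, 30.5 and 39.0 at 7 days and 22.0 and 21.9 at 28 days. The 28 day libraries lay within the range of the controls. It rose by 0.65 on the log2 scale at 7 days (SE 0.13, BH-adjusted p = 0.0198). It did not pass without control library 1, control library 2 or 7 day library 2 (BH-adjusted p = 0.111, 0.121 and 0.0886), and after median ratio scaling (0.063) or quantile normalization (0.0774). At 28 days its log2 change was 0.01 (SE 0.13, BH-adjusted p = 0.982), and it was below 0 with either rescaling.

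Other laminin chains were mostly not called. Of 5 tested chains, from a list of 8, 1 rose and 1 fell at 7 days, with a median log2 change of 0.32. Over all tested genes 13.2% were higher and 2.27% lower. Lama4, the alpha chain typical of endothelial basement membranes, rose by 0.87 on the log2 scale, with means of 10.8 and 20.3 RPKM (BH-adjusted p = 0.00846). Lamb3, a beta chain best known from skin, fell by 0.74 on the log2 scale (BH-adjusted p = 0.0248). Neither passed without control library 1 (BH-adjusted p = 0.0692 for each), control library 2 (0.0566 and 0.156) or 7 day library 2 (0.0619 and 0.126), and that of Lamb3 also without 7 day library 1 (0.0792). Lamb3 was low, with a mean below 5 RPKM, and its 7 day call was lost without the filter on low values (BH-adjusted p = 0.06). At 28 days 0 of these 5 passed in limma. At an unadjusted p under 0.05 2 were higher and 1 lower, beside 12.8% and 9.32% of all tested genes. At 28 against 7 days Lama4 fell by 0.70 (BH-adjusted p = 0.0378). It no longer passed without control library 1, control library 2, either 7 day library or 28 day library 1 (BH-adjusted p = 0.0824, 0.0839, 0.0702, 0.2 and 0.118). The call of Lama4 at 28 against 7 days was also lost after median ratio scaling (0.0836) and quantile normalization (0.0876).

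Of the 2 linking proteins, Hspg2 rose at 7 days and Nid1 did not pass. Hspg2, which encodes perlecan, stood at 22.9 and 21.9 RPKM in the controls, 31.4 and 46.7 at 7 days and 27.0 and 31.4 at 28 days. Both 7 day libraries lay above the controls, but the 28 day libraries reached the lower of them. It rose by 0.76 on the log2 scale at 7 days (SE 0.18, BH-adjusted p = 0.0354). It did not pass without control library 1, control library 2 or 7 day library 2 (BH-adjusted p = 0.153, 0.156 and 0.119), and after median ratio scaling (0.0833) or quantile normalization (0.106). Without 7 day library 2 its log2 change was 0.48.

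Nid1, which encodes nidogen 1, the protein that binds laminin to type IV collagen, stood at 25.6 and 23.1 RPKM in the controls, 30.9 and 42.7 at 7 days and 20.0 and 22.5 at 28 days. The 7 day libraries were above the controls and the 28 day libraries below them. Its log2 changes were 0.57 at 7 days (SE 0.16, BH-adjusted p = 0.0566) and -0.19 at 28 days (SE 0.16, BH-adjusted p = 0.522), and neither passed. At 7 days it passed without 7 day library 1, at a log2 change of 0.80 (BH-adjusted p = 0.0318), but was at 0.34 without 7 day library 2 (0.208). At 28 days it was at -0.11 without 28 day library 1 and at -0.12 without control library 1.

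Collagens XV and XVIII, which carry heparan or chondroitin sulfate chains and release antiangiogenic fragments from their C-terminal ends, had the largest 7 day changes among the 10 members. Col15a1 stood at 10.5 and 12.6 RPKM in the controls, 36.3 and 45.6 at 7 days and 17.0 and 21.4 at 28 days. The 3 groups did not overlap, and the 28 day libraries lay nearer to the controls. It rose by 1.78 on the log2 scale at 7 days (SE 0.17, BH-adjusted p = 0.00154), and at 28 days its log2 change was 0.71 (BH-adjusted p = 0.0618).

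Col18a1, the precursor of endostatin, had the lowest level of the 10 members, at 1.21 and 1.50 RPKM in the controls, 4.53 and 7.66 at 7 days and 1.74 and 3.08 at 28 days. All 3 groups were again apart, but the 2 libraries of each infused group differed more than those of the other members. It rose by 1.79 on the log2 scale at 7 days (SE 0.29, BH-adjusted p = 0.00911). It no longer passed without control library 1 (BH-adjusted p = 0.0645) or 7 day library 2 (0.0687). Because its level is low, the added 0.5 RPKM makes this change an underestimate. At 28 days its log2 change was 0.62 (BH-adjusted p = 0.264), and it was 0.28 without 28 day library 2 and 0.95 without 28 day library 1.

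**Figure D2:**
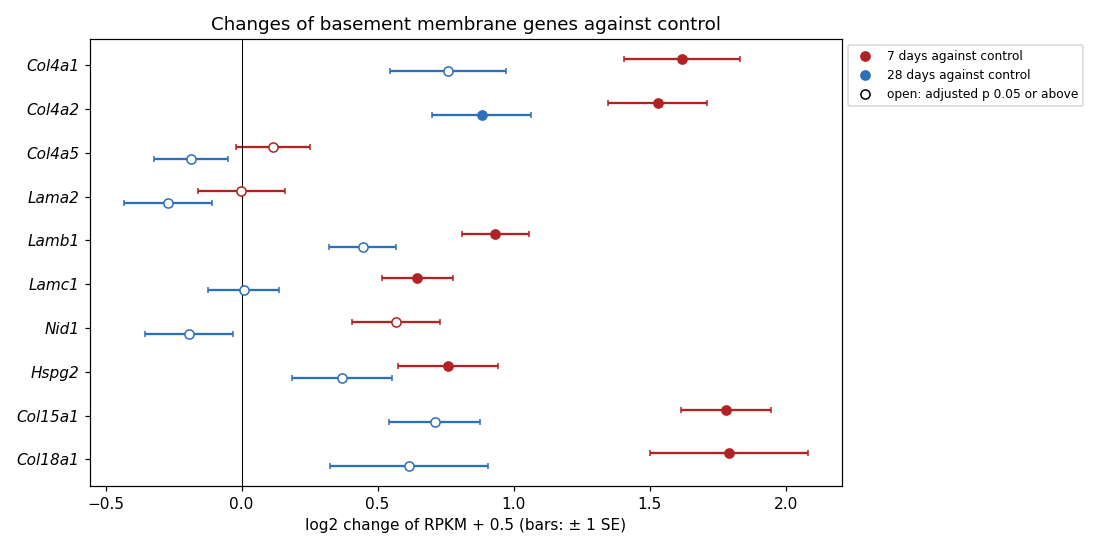
Log2 change of RPKM + 0.5 (horizontal axis) of each member at 7 days (red) and 28 days (blue) against control, with bars of 1 SE; filled points had a BH-adjusted p under 0.05. The 4 collagens Col4a1, Col4a2, Col15a1 and Col18a1 lie between 1.53 and 1.79 at 7 days, and Col4a2 is the single filled point at 28 days.

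Of the 10 members, 7 were higher and 0 lower at 7 days by limma, where 13.2% of all tested genes were higher and 2.27% lower. Relative to the median of all genes, the 7 that rose were at 1.66 (Col18a1), 1.65 (Col15a1), 1.48 (Col4a1), 1.39 (Col4a2), 0.80 (Lamb1), 0.62 (Hspg2) and 0.51 (Lamc1), and the others at 0.43 (Nid1), -0.02 (Col4a5) and -0.14 (Lama2). The members' median log2 change was 0.85, beside 0.14 over all tested genes, and median ratio scaling made it 0.69 and quantile normalization 0.68. In 8 of 10, both 7 day libraries lay above both controls, which held for 48.6% of all tested genes. The count was 4 without control library 1 and 4 without 7 day library 2. Col4a1, Col4a2, Col15a1 and Lamb1 were called in both cases and with either rescaling.

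At 28 days 1 of 10 members was higher than in the controls and 0 were lower, against 2.87% and 1.54% of all tested genes. At an unadjusted p under 0.05, 4 members were higher and 0 lower, against 12.8% and 9.32% of all tested genes. The median log2 change was 0.41, beside 0.01 over all tested genes. Both 28 day libraries lay above both controls in 6 members and below them in 3, namely Col4a5, Lama2 and Nid1. Over all tested genes these shares were 28.8% and 25.8%.

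At 28 against 7 days 3 of 10 members were lower and 0 higher, where 4.26% of all tested genes were lower and 0.406% higher. Col15a1 fell by 1.07 on the log2 scale (SE 0.17, BH-adjusted p = 0.0196), Nid1 by 0.76 (SE 0.16, BH-adjusted p = 0.0475) and Lamc1 by 0.64 (SE 0.13, BH-adjusted p = 0.0416). All 10 members had a value below 0, from -1.18 in Col18a1 to -0.27 in Lama2, and the median was -0.64, beside -0.12 over all tested genes. The 28 day libraries lay below both 7 day libraries in 8 of 10 members, which held for 41.2% of all tested genes. Col4a1, Col4a2 and Col18a1 had log2 differences of -0.86, -0.65 and -1.18 that did not pass (BH-adjusted p = 0.0714, 0.099 and 0.0708).

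The calls of Nid1 and Lamc1 at 28 against 7 days were lost after either rescaling (BH-adjusted p from 0.107 to 0.122). They were also lost without control library 1 or 2, 7 day library 2, 28 day library 1 or 28 day library 2. For Nid1 the BH-adjusted p was then 0.0893, 0.0901, 0.19, 0.146 and 0.0579, and for Lamc1 0.091, 0.0918, 0.181, 0.112 and 0.071. That of Col15a1 was lost without 7 day library 1, 7 day library 2 or 28 day library 1 (BH-adjusted p = 0.0571, 0.146 and 0.0631). Without 28 day library 2, Col4a1 and Col18a1 passed lower, at log2 differences of -1.10 and -1.51 (BH-adjusted p = 0.0395 and 0.0377). Without 28 day library 1 they were at -0.62 and -0.84 (0.201 and 0.196), and without 7 day library 2 at -0.59 and -0.83 (0.277 and 0.288). The 3 comparisons share libraries and are not independent of one another.

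**Figure D3:**
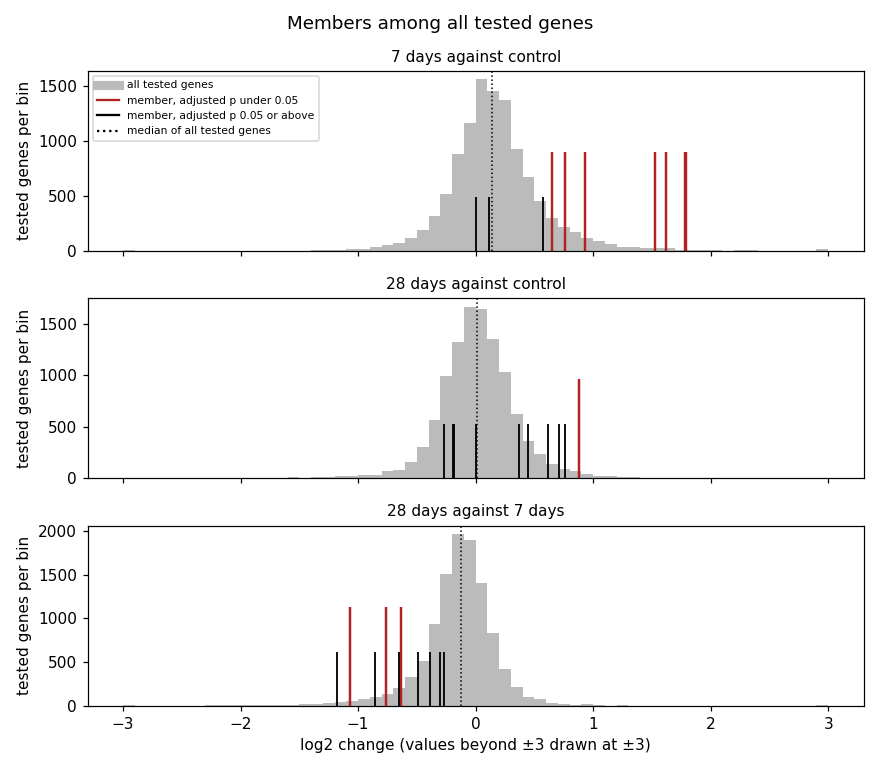
Number of tested genes (vertical axes) by log2 change (horizontal axis, bins of 0.1) in the 3 comparisons, with the 10 members as vertical lines, red where the BH-adjusted p was under 0.05, and the median of all tested genes dotted. At 7 days 7 members are red and lie to the right of the bulk of genes, and at 28 against 7 days all 10 lie below 0.

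The 7 day libraries differed for all members in 1 direction. All 10 were higher in 7 day library 2 than in library 1, by a median of 0.40 on the log2 scale, from 0.20 in Lama2 to 0.70 in Col18a1, while 47.6% of all tested genes were higher in it. At 28 days 7 of 10 were higher in library 2, near the 58.7% of all tested genes, with differences from -0.44 in Lama2 to 0.67 in Col18a1. In the controls 7 of 10 were higher in library 2, beside 56.4% of all tested genes.

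Ratios of RPKM within a library show which chains moved together. Col4a1 to Col4a2 was 1.33 and 1.28 in the controls, 1.35 and 1.42 at 7 days and 1.14 and 1.26 at 28 days. It moved little while both chains rose, by 3.07-fold and 2.89-fold on the scale of RPKM + 0.5, at 7 days. Col4a1 to Col4a5 was 5.22 and 5.06 in the controls, 13.5 and 15.9 at 7 days and 8.15 and 12.3 at 28 days, with no overlap of either infused group with the controls. Col4a1 to Col1a1, the main chain of fibrillar collagen I, was 3.90 and 3.68 in the controls, 1.89 and 2.03 at 7 days and 3.92 and 3.83 at 28 days. This ratio was lower in both 7 day libraries than in the other 4. Col4a1 to Col3a1, another fibrillar collagen chain, was 1.16 and 1.12 in the controls, 0.511 and 0.648 at 7 days and 1.51 and 1.51 at 28 days. It was also lowest at 7 days, but lay above the controls in both 28 day libraries.

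Within laminins, Lamb1 to Lama2 was 1.40 and 1.41 in the controls, 2.66 and 2.80 at 7 days and 1.92 and 2.88 at 28 days, and lay above the controls in all 4 infused libraries. Lamb1 to Lamc1 was 0.651 and 0.722 in the controls, 0.863 and 0.824 at 7 days and 0.898 and 0.979 at 28 days, also higher in all 4. Lama4 to Lama2 was 1.03 and 0.993 in the controls, 1.83 and 1.95 at 7 days and 1.09 and 1.78 at 28 days. The 28 day libraries differed widely in the ratios to Lama2, whose level was lower in 28 day library 2. With 2 libraries a group, an exact permutation test of such a ratio cannot reach 0.05, and none was run.

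**Figure D4:**
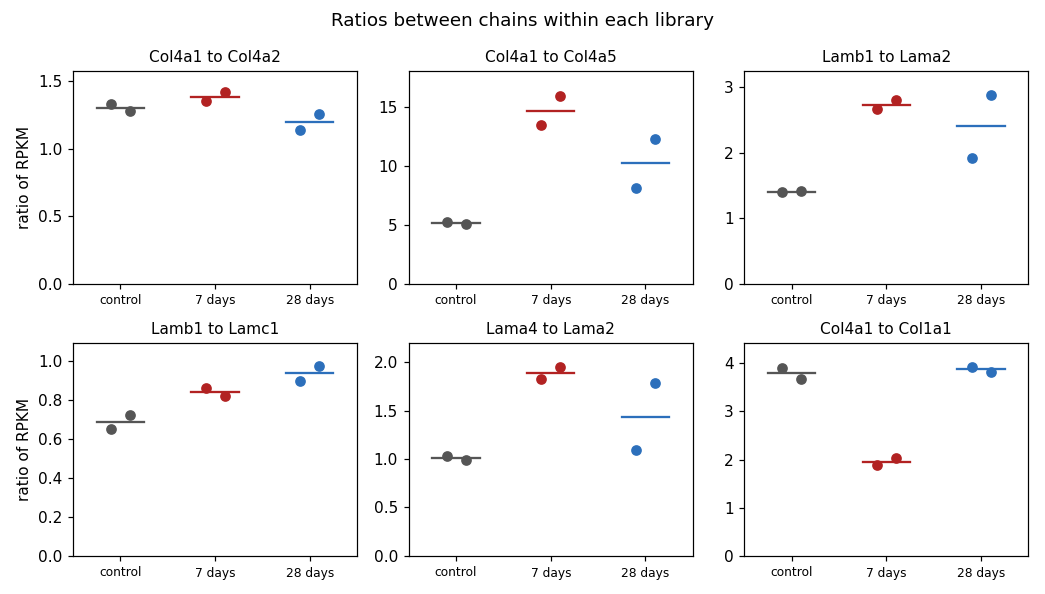
Ratios of RPKM between 2 genes (vertical axes from 0) in each library, with lines at group means. Col4a1 to Col4a2 stays between 1.14 and 1.42 in all 6 libraries, Col4a1 to Col4a5 and Lamb1 to Lama2 are higher in all infused libraries than in the controls, and Col4a1 to Col1a1 is lowest at 7 days.

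As shares of the summed RPKM of the 10 members, Col4a1 made up 21.8% ± 0.734 of the control sum, 30.0% ± 1.25 of the 7 day sum and 27.0% ± 2.84 of the 28 day sum (SD, n = 2). Lama2 made up 5.70% ± 0.0212, 2.54% ± 0.311 and 3.50% ± 1.23, and Nid1 13.0% ± 1.35, 8.61% ± 0.0286 and 8.22% ± 0.39. The sum itself was 187 ± 5.79, 427 ± 95.3 and 259 ± 33.7 RPKM.

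Other proteins of basement membranes and their surroundings also changed at 7 days. Counts in this and the following lists stand beside 13.2% of all tested genes higher and 2.27% lower at 7 days. At 28 days these shares were 2.87% and 1.54%. Of 17 tested glycoproteins and proteoglycans, from a list of 21, 6 rose and 1 fell, with a median log2 change of 0.52. Thbs1, which encodes thrombospondin 1, rose by 2.82 on the log2 scale, Col8a1, a short-chain collagen of vessel walls, by 1.82, and Sparc, a collagen-binding protein, by 1.59 (BH-adjusted p = 0.00481, 0.000871 and 0.0029). Egflam, which encodes the dystroglycan ligand pikachurin, was the 1 that fell, by 0.48 (BH-adjusted p = 0.0382), and is named after its value was seen. Its call was lost without either control library (BH-adjusted p = 0.237 and 0.155) and without either 7 day library (0.098 and 0.154). At 28 days 1 of the 17 was higher, Thbs1 at 2.11 (BH-adjusted p = 0.0313). It no longer passed without control library 1 (0.177), control library 2 (0.136), 7 day library 1 (0.0682) or 7 day library 2 (0.0671).

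Of 16 tested genes listed as laminin and collagen receptors or related membrane proteins, from a list of 18, 3 rose and 0 fell at 7 days. This is near the 13.2% and 2.27% of all tested genes. The median log2 change was 0.30. Itga6, a laminin-binding integrin chain, rose by 1.01 and Itga7, the main laminin-binding integrin chain of muscle, by 0.48 (BH-adjusted p = 0.00701 and 0.0339). The third, Itga9, is another integrin chain and rose by 0.89 (BH-adjusted p = 0.00355). Itga6 lost its call without control library 1 (BH-adjusted p = 0.0592), and Itga7 without control library 1 or 2 (0.203 and 0.154) or 7 day library 1 or 2 (0.0895 and 0.146). Itga7 also lost its call after median ratio scaling (BH-adjusted p = 0.139) and quantile normalization (0.124). The dystroglycan gene Dag1, whose log2 value was 0.37, did not pass (BH-adjusted p = 0.113), and was looked at after its value was seen. At 28 days 0 of the 16 passed in limma. At an unadjusted p under 0.05 4 were higher and 2 lower, beside 12.8% and 9.32% of all tested genes.

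Enzymes and chaperones of collagen synthesis rose more often than they fell. Of 19 tested genes, from a list of 21, 12 rose and 0 fell at 7 days, with a median log2 change of 0.65. The crosslinking enzymes Lox, Loxl1 and Loxl2 rose by 2.27, 1.81 and 1.53 (BH-adjusted p = 0.0018, 0.000964 and 0.00168). Pxdn, the peroxidase that forms sulfilimine crosslinks in type IV collagen, rose by 0.88 and the collagen chaperone Serpinh1 by 0.87 (BH-adjusted p = 0.0112 and 0.0155). Both are named after their values were seen, and both calls were lost without control library 1 (BH-adjusted p = 0.0792 and 0.121), control library 2 (0.0673 and 0.055) or 7 day library 2 (0.0719 and 0.091). At 28 days Loxl1 was higher by 1.13 (BH-adjusted p = 0.015), and Ctage5, which acts in collagen export, fell by 0.51 on the log2 scale (BH-adjusted p = 0.0481). Loxl1 lost that call without control library 1 (BH-adjusted p = 0.109). Ctage5 lost it with any single library left out, from 0.0632 without 7 day library 2 to 0.305 without control library 1.

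Of 15 tested proteases and inhibitors that act on basement membranes, from a list of 18, 10 rose and 2 fell at 7 days, with a median log2 change of 1.08. Timp1 rose by 3.58, Mmp14 by 2.38 and Mmp3 by 2.06 (BH-adjusted p = 0.000266, 0.000233 and 0.0137). Mmp3 lost its call without control library 1 (0.0857), control library 2 (0.0517) or 7 day library 2 (0.0836). The 2 that fell were the metalloproteinase inhibitors Timp3 and Timp4, which fell by 0.86 and by 0.82 and are named after their values were seen (BH-adjusted p = 0.0165 and 0.00665). Both lost their calls without control library 1 (BH-adjusted p = 0.102 and 0.0699), and Timp3 also without control library 2 (0.0904). At 28 days 3 of the 15 were higher and 0 lower, namely Adamts1, Timp1 and Mmp14 at 2.16, 1.37 and 1.19 (BH-adjusted p = 0.0402, 0.0143 and 0.00563). Those of Adamts1, Timp1 and Mmp14 were lost without control library 1 (BH-adjusted p = 0.224, 0.0615 and 0.0599). Without control library 2 Adamts1 and Timp1 lost theirs (0.148 and 0.0678), and Adamts1 also without either 7 day library (0.0775 and 0.0757). Of 6 tested fibrillar collagens, from a list of 8, 6 rose at 7 days with a median log2 change of 2.04, and 0 passed at 28 days in limma, where the median was 0.38 and 2 were higher at an unadjusted p under 0.05.

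**Figure D5:**
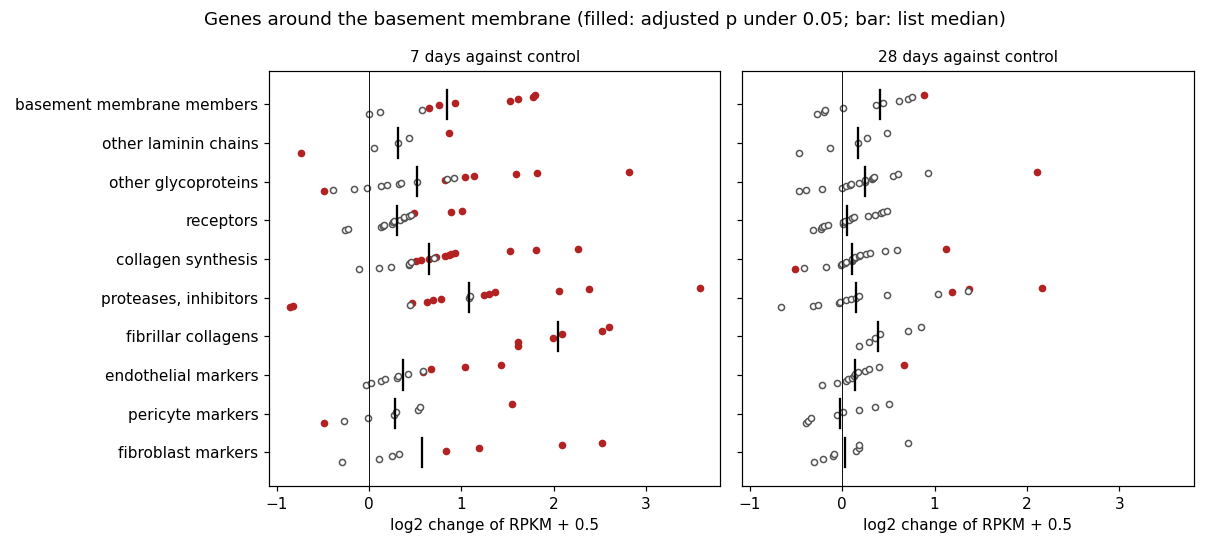
Log2 change of RPKM + 0.5 (horizontal axes) of every tested gene in 10 lists (rows) at 7 and at 28 days against control; filled points had a BH-adjusted p under 0.05 and vertical bars are list medians. At 7 days the medians run from 0.28 for pericyte markers and 0.85 for the basement membrane members to 2.04 for fibrillar collagens.

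Basement membrane genes are expressed by several cell types of the heart, and in whole tissue more cells of a type and more RNA per cell cannot be told apart. Of 12 endothelial markers, 4 rose at 7 days and 1 at 28 days, with median log2 changes of 0.37 and 0.14, and 0 of the 12 were at 0. Their summed RPKM was between 308.1 and 322.5 in the controls, 410 and 479.2 at 7 days and 309.6 and 401.2 at 28 days, with replicate 2 the higher in both infused groups. Pecam1, an endothelial adhesion molecule, rose from 42.3 to 64.0 RPKM at 7 days (log2 change 0.58, BH-adjusted p = 0.0282). It no longer passed without control library 1, control library 2 or 7 day library 2 (BH-adjusted p = 0.156, 0.144 and 0.101), and after median ratio scaling (0.0876) or quantile normalization (0.107). Cdh5, the endothelial cadherin gene, did not pass, with means of 38.6 and 58.5 RPKM (BH-adjusted p = 0.0999). Of 8 pericyte markers, 1 rose and 1 fell at 7 days (median 0.28), beside 13.2% and 2.27% of all tested genes. Their sum was between 184.8 and 189.3 in the controls, 184.9 and 222.8 at 7 days and 159.3 and 163.2 at 28 days. Replicate 2 again had the higher sum in both infused groups, so this was not particular to endothelial markers. Rgs5 and Pdgfrb, markers of pericytes, had log2 changes of -0.01 and 0.27 at 7 days (BH-adjusted p = 0.959 and 0.183).

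Of 8 fibroblast markers, 4 rose at 7 days and 0 passed at 28 days in limma (1 higher at an unadjusted p under 0.05, beside 12.8% of all tested genes), with medians of 0.58 and 0.03. Among the 4 were Col1a1 and Col1a2, with log2 changes of 2.53 and 2.09, which are also counted in the fibrillar collagen list. The summed RPKM of the 8 was between 927 and 947.2 in the controls, 1116 and 1149 at 7 days and 757.2 and 1004 at 28 days. Pdgfra and Tcf21, markers of resident fibroblasts, had log2 changes of 0.25 and 0.11 at 7 days (BH-adjusted p = 0.414 and 0.734). Of 5 smooth muscle markers 2 rose at 7 days, and their sum was between 95.9 and 113 in the controls, 162.2 and 219.8 at 7 days and 113.2 and 138.8 at 28 days. Of 8 monocyte and macrophage markers 7 rose at 7 days, and their sum was between 154.9 and 166.1 in the controls, 278.6 and 321.7 at 7 days and 116.4 and 157.6 at 28 days. In these 5 lists 0 genes were at 0 in all libraries. What part any of these cell types had in the changes of the members was not tested.

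Genes whose pattern over the 6 libraries was most like the mean of the members were looked for among 10317 tested genes. Likeness was the root mean square difference between log2 profiles, each centred on its own mean. The 5 nearest were Prelp, at 0.0366, Actn1 at 0.0572, Itga6 at 0.0574, Cpne8 at 0.0585 and Cald1 at 0.0629. Prelp encodes a leucine-rich proteoglycan that binds perlecan, Actn1 the nonmuscle alpha-actinin, and Cald1 the actin-binding protein caldesmon. Prelp stood at 10.4 and 10.5 RPKM in the controls, 18.0 and 22.9 at 7 days and 12.1 and 13.6 at 28 days. Among the members themselves Lamb1 lay nearest to the members' mean, at 0.0855, and Lama2 farthest, at 0.442.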

How the data were processed

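RNA of mouse hearts was sequenced in 3 groups of 2 libraries. Per the file headers, values are RPKM, which the authors computed. HTSeq, TopHat2 2.0.12, DESeq2, Bowtie 0.12.9 and builds mm9 and mm8 appear, without roles, in the submitters' processing notes. The annotation, strandedness and RPKM tool are not given in sources used here, and neither is how reads of overlapping genes were assigned.

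RPKM were log2 transformed after adding 0.5, which understates changes of low genes. Genes averaging 1 RPKM or more over the 6 libraries, 11096 in number, entered a limma 3.58.1 fit (R 4.3.3) of the 3 group means with variance moderation along a trend; residual degrees of freedom were 3, prior 4.21. "Rose", "fell" and "called" mean a BH-adjusted p under 0.05 across these genes. The fit was tested on simulated data with known changes. Members, lists and tests were chosen with earlier results of these data known. Of each list, up to 3 called genes with the largest change in a comparison were eligible to be named, and not all are described. Of each marker list the first 2 genes were eligible. The lists also covered atrial, Schwann cell, adipocyte, mesothelial, red blood cell and skeletal muscle markers. Depth was estimated from ratios of genes under 0.5 RPKM, within a tolerance of 0.25%. Promoter windows are from RefSeq (GRCm38.p6), matched by symbol for 9 of 10 members, not for Lamc1. Alternatives were other pseudocounts, filters, scalings and variance settings, a replicate block, the fold thresholds in the series' design text, and each library left out. Python 3.11.15, pandas 2.3.3, numpy 2.4.6 and matplotlib 3.10.9 were used.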

Additional observations from a re-analysis of the deposited data

Results flagged for a closer look

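Levels differed between the 7 and 28 day libraries for 3 members, by the limma test of 28 against 7 days. The controls are labelled 0 days, so infusion and time itself cannot be told apart in this comparison. The log2 differences were -1.07 for Col15a1, -0.76 for Nid1 and -0.64 for Lamc1. Nid1 had not passed against control at either time, and the calls of Nid1 and Lamc1 did not hold after either rescaling. With 2 libraries a group, no library could be assessed as an outlier.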

How the results depend on the processing

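Among the 10 members, 7 were called at 7 days, and 4 with an unadjusted p under 0.05 and a fold change over 2, the criterion in the series' design text. Lamb1, Lamc1 and Hspg2 then failed on size alone. Lamc1 and Hspg2 lost their 7 day calls after median ratio scaling (BH-adjusted p = 0.063 and 0.0833) and quantile normalization (0.0774 and 0.106). Hspg2 also lost its call without a filter on low values (0.082). The count ranged from 4 to 8 with a library left out. At 28 days against control 1 was called, against 0 without a filter on low values, 0 after quantile normalization, 0 without a trend, 3 with the replicate block, 3 with an unadjusted p and a fold over 1.5, and 0 to 1 with a library left out. At 28 against 7 days 3 were called, against 0 without a filter, 1 after median ratio scaling, 1 after quantile normalization, 1 without a trend, 1 with only the 2 groups compared, 6 with an unadjusted p and a fold over 1.5, a threshold the text does not set for this comparison, and 0 to 3 with a library left out. With the replicate block 7 members were called at 7 days. At 28 against 7 days the block gave 4: Nid1 and Lamc1 lost their calls (BH-adjusted p = 0.0593 and 0.0615), and Col4a1, Col4a2 and Col18a1 joined Col15a1 (0.0272, 0.0385 and 0.0224). Same-numbered libraries deviated from their group means with correlations of 0.149, -0.0193 and -0.0139 across genes, so the numbers were not taken as pairs.

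Log2 changes near 0 turned sign in 3 members. Col4a5 at 7 days was -0.0325 with median ratio scaling and -0.0663 with quantile normalization, and ranged from -0.0298 to 0.261 with a library left out. Lama2 at 7 days ranged from -0.100 to 0.0994 with a library left out. Lamc1 at 28 days was -0.00777 and -0.0651 with these scalings, and ranged from -0.0255 to 0.0401 with a library left out. Over all genes 1713, 489 and 518 were called in the 3 comparisons. These were 445, 808 and 859 with an unadjusted p and a fold threshold. Leaving out a library gave 392 to 2252 at 7 days, 33 to 384 at 28 days and 27 to 689 at 28 against 7 days. At 28 days against control 61 were called without a filter and 234 with only the 2 groups compared. At 28 against 7 days the counts were 264 without a filter, 295 with a mean RPKM of at least 5, 288 and 265 after median ratio and quantile scaling and 287 with only the 2 groups. Of the calls at 7 days 85.3% were higher, and 63.1% and 57.0% after these scalings. The causes were not tested. The depth in reads is unknown, and 2 libraries a group limit what could be called.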
